A study of Arabidopsis thaliana with 27 samples.

Results

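A set of 111 probe sets of the Affymetrix ATH1 array had a lower signal in ozone than in clean air after 3 h in Arabidopsis leaves of both genotypes, and that difference was absent, small or turned round after 2 d. It was chosen by a rule on the measured values: the mean log2(intensity + 1) of the ozone arrays was at least 0.8 below that of the clean-air arrays at 3 h in the mutant and in wild type, the difference at 2 d was above -0.4 in both, and the highest of the 8 group means was 6 or more. Of 22746 probe sets, 352 met the limit at 3 h in both genotypes, 158 of these also the limit at 2 d and 112 also the limit on signal. The rule also leaves out organelle genes and some families by symbol, which removed 1 probe set, UGT78D1, and leaves 111. Of these members 56 had 1 listed gene, 3 had several listed genes and 52 had no listed gene in the annotation used here, and the last are given by their probe set ID.

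The plants were the Arabidopsis thaliana double mutant gpa1-4/agb1-2, in which the genes for both the G-protein alpha subunit (GPA1) and beta subunit (AGB1) are null, and Columbia (Col-0) wild type. At 3 h there were 3 arrays of each genotype in ozone (125 ppb) and 3 in clean air (5 ppb). At 2 d there were 4 mutant arrays in ozone and 3 in clean air, and 4 wild-type arrays in ozone and 4 in clean air. All plants were grown for 4 to 5 weeks under 9 h of light and 15 h of dark, then moved to chambers at 24 degrees C, where gas was given for 7 h a day, and total RNA came from leaves in the middle of the rosette whorl. There were 4 chambers and the labels do not tie them to arrays, so chamber and air cannot be told apart. The mutant is a single double-null line, and GPA1 and AGB1 were not among the named probe sets, so the loss of their transcripts is not analysed here.

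Ozone enters leaves through stomata and breaks down in the cell wall space to reactive oxygen species, to which leaf cells respond with rapid changes in transcripts of defence, metabolism and growth. The heterotrimeric G protein relays signals from the plasma membrane, and in Arabidopsis its alpha and beta subunits take part in responses to ozone, in stomatal movement and in growth. Leaf growth depends on proteins that loosen the wall, among them expansins, which let cellulose and its matrix slide, and xyloglucan endotransglucosylases, which cut and rejoin the xyloglucan tethers.

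The median of the 111 members gives the level of the set on each array. At 3 h this median was 7.49, 6.95 and 7.27 on the mutant's ozone arrays and 8.49, 7.94 and 8.33 on its clean-air arrays. In wild type it was 7.03, 6.82 and 7.49 in ozone and 8.45, 8.01 and 8.38 in clean air. At 2 d it was 8.20, 8.15, 8.05 and 7.84 in ozone and 7.50, 7.80 and 7.26 in clean air in the mutant. The wild-type arrays at 2 d had 8.25, 8.14, 8.24 and 7.25 in ozone and 7.72, 7.64, 7.47 and 7.49 in clean air. All ozone arrays lay below all clean-air arrays at 3 h in both genotypes. At 2 d all mutant ozone arrays and 3 of the 4 wild-type ozone arrays lay above the clean-air arrays of their genotype. The rule chose the members on these same arrays, so the lower level in ozone at 3 h is built in. At 2 d the rule set a floor on the difference and no ceiling, so these medians are a description. In wild type the ozone array of replicate 4 at 2 d stood apart at 7.25. At 3 h replicate 2 was the lowest array in each of the 4 groups, in ozone as in clean air. Over all probe sets the array medians spanned only 7.27 to 7.52.

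**Figure D1:**
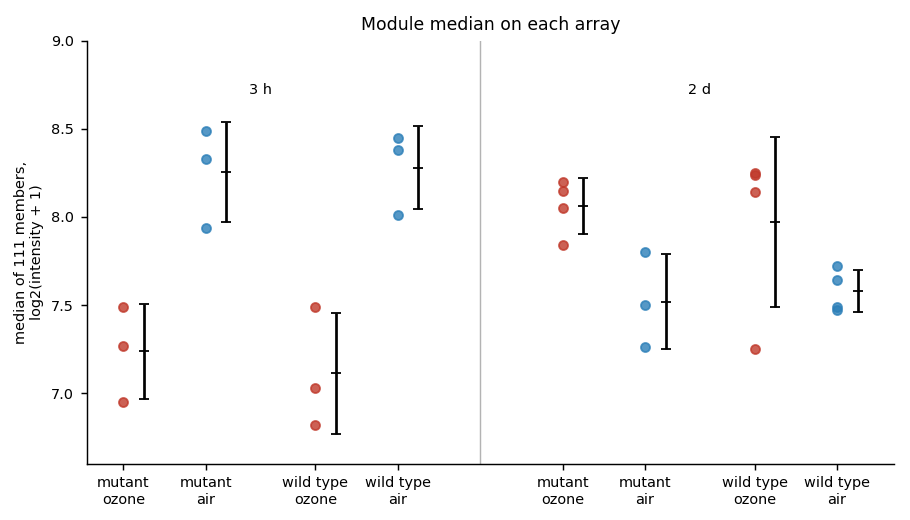
The median log2(intensity + 1) of the 111 members on each of the 27 arrays (points, ozone in red and clean air in blue), with the mean and SD of each group beside it. The means at 3 h were 7.24 in ozone and 8.25 in clean air in the mutant and 7.11 in ozone and 8.28 in clean air in wild type. The lower level in ozone at 3 h is built in by the choice of members. The low wild-type ozone point at 2 d is replicate 4.

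Across members, the difference of ozone minus clean air at 3 h had a median of -0.99 in the mutant, where it ran from -2.11 to -0.80, and of -1.13 in wild type, where it ran from -3.56 to -0.80. It was deeper in the mutant for 39 members and deeper in wild type for 72. At 2 d the median was 0.42 in the mutant and 0.12 in wild type. The wild-type value at 2 d moved between 0.05 without replicate 1 and 0.34 without replicate 4 of the ozone arrays, and was 0.08 without replicate 3. These 4 differences chose the members and are given as a description. In leaf RNA, fewer cells of a type and less of a transcript per cell cannot be told apart.

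The single members were noisy. Their residual SD had a median of 0.64, against 0.351 over all probe sets that reach a group mean of 6, and the median SE of a 3 h difference was 0.502. In the limma fit over all probe sets, 2 members passed an adjusted p of 0.05 (Benjamini-Hochberg) as lower at 3 h in the mutant, where 0.0352% of all probe sets passed, and 3 in wild type, where 0.299% passed. On the arrays, ozone and clean air did not overlap at 3 h for 59 members in the mutant (8.34% of all probe sets were lower without overlap) and for 58 in wild type (8.79%). The separation held in both genotypes for 37 members (2.15% of all probe sets) and in neither for 31. Since the rule used these contrasts, the shares are background only.

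The 4 members that passed at 3 h in a genotype were named after their values were seen. Probe set 263548_at passed in both: it had 10.66, 11.25 and 10.17 on the mutant's ozone arrays, against 13.16, 11.41 and 12.62 in clean air, and 10.63, 10.96 and 10.33 on the wild-type ozone arrays, against 12.63, 11.85 and 12.02 in clean air. Its differences were -1.71 ± 0.319 in the mutant and -1.53 ± 0.319 in wild type (SE, limma adjusted p = 0.0178 in each). The SE pools the spread of all 8 groups, and the SDs of this probe set were 0.316 to 0.894 at 3 h and 0.0767 to 0.163 at 2 d. At 2 d it lay between 14.08 and 14.48 on every array of both genotypes and both airs. That is near the highest intensity on those arrays, and whether a ceiling of the signal hid a difference was not tested. Probe set 264045_at passed in the mutant, with -1.42 ± 0.277 (limma adjusted p = 0.0207), and had -0.87 ± 0.277 in wild type (adjusted p = 0.12). Probe set 254563_at and the gene AT4G29610 passed in wild type, with -1.31 ± 0.3 and -1.45 ± 0.364 (limma adjusted p = 0.0286 and 0.046). In the mutant AT4G29610 had 7.70, 7.57 and 7.59 in ozone and 9.10, 7.62 and 9.00 in clean air, where replicate 2 lay beside the ozone arrays. None of the 4 passed when the 3 h arrays were fitted alone, which uses fewer arrays and the spread of that time alone.

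Among the 10 members with a gene symbol in the reference table, 3 act on the cell wall. All 10 are described because the table names them, and some were taken up after their values were seen. EXPA9 is an alpha-expansin, a protein that loosens the wall without cutting it. It had 7.22, 6.86 and 6.87 on the mutant's ozone arrays at 3 h, against 8.55, 7.52 and 8.20 in clean air. In wild type it had 6.45, 6.77 and 7.07 in ozone, against 7.69, 7.89 and 7.81 in clean air, so the arrays did not overlap in either genotype. The differences were -1.11 ± 0.414 in the mutant and -1.03 ± 0.414 in wild type. At 2 d the mutant had 7.38, 8.38, 7.37 and 6.74 in ozone and 7.66, 8.0 and 6.65 in clean air, and wild type had 8.25, 8.48, 7.37 and 6.83 in ozone and 7.00, 7.44, 7.56 and 7.40 in clean air. The groups overlapped at that time in both genotypes.

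XTH32 is a xyloglucan endotransglucosylase/hydrolase. On the mutant's arrays at 3 h it had 10.79, 10.68 and 10.65 in ozone, against 11.76, 11.13 and 12.05 in clean air, with no overlap. The wild-type arrays had 10.47, 9.46 and 11.62 in ozone and 11.38, 11.74 and 11.53 in clean air, where replicate 3 of the ozone arrays reached the clean-air level. The mean differences were -0.94 ± 0.464 in the mutant and -1.04 ± 0.464 in wild type. In clean air XTH32 was lower at 2 d than at 3 h by a mean difference of -2.69 in the mutant and -2.27 in wild type. GH9B8 is a glycosyl hydrolase of the family of plant endoglucanases, some of which trim wall glucans. It had 6.94, 6.03 and 6.51 in ozone and 7.84, 6.78 and 8.27 in clean air in the mutant at 3 h, and 6.74, 6.71 and 8.14 in ozone and 7.92, 8.24 and 8.06 in clean air in wild type. Ozone and clean air overlapped in both, through the low replicate 2 of the mutant's clean-air arrays and the high replicate 3 of the wild-type ozone arrays.

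A list of cell wall loosening and synthesis genes, matched by symbol, had 36 measured genes, of which EXPA9 and XTH32 are members. None of the 36 passed in either direction at 3 h in the mutant or in wild type. Their median difference at 3 h was -0.25 in the mutant and -0.02 in wild type, against -0.04 and -0.01 over all probe sets, and 25 of 36 were below 0 in the mutant and 20 in wild type, against 53.7% and 51% of all probe sets. A difference of -0.8 or less was met by 6 of 36 in the mutant and 8 in wild type, members included, against 4.89% and 6.91% of all. The list also leaned lower at 2 d, with a median of -0.25 in each genotype, against -0.01 in the mutant and -0.09 in wild type over all probe sets. At that time 27 of 36 were below 0 in the mutant and 24 in wild type. The limit of -0.8 was met by 4 and 10, against 1347 and 2123 of all 22746 probe sets.

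Among the members with a gene symbol, the enzymes and proteins of secondary metabolism and defence were CHIL, AOP1 and JAL23. CHIL is a chalcone isomerase-like protein that lacks isomerase activity of its own and raises flavonoid production. Its arrays overlapped in both genotypes at 3 h, with 8.26, 7.30 and 5.94 in ozone and 8.34, 9.31 and 7.54 in clean air in the mutant, and 6.90, 6.62 and 7.14 in ozone and 7.18, 9.08 and 6.82 in clean air in wild type. The differences of -1.23 ± 1.32 in the mutant and -0.80 ± 1.32 in wild type were no larger than their SE. AOP1 belongs to the dioxygenase family whose best known members modify glucosinolate side chains. In the mutant it had 8.36, 7.67 and 8.44 in ozone at 3 h, below 8.99, 8.97 and 8.95 in clean air. Wild type had 7.55, 7.12 and 8.78 in ozone and 8.75, 9.21 and 9.00 in clean air, which overlapped by replicate 3 of the ozone arrays. AOP1 was the only member among the 3 genes matched by symbol to the glucosinolate list, of which none passed at 3 h in either genotype. JAL23, a jacalin-related lectin, ran from 5.16 to 8.0 in ozone and from 7.41 to 8.03 in clean air in the mutant, and from 7.21 to 8.08 in ozone and from 7.37 to 9.75 in clean air in wild type, so its arrays overlapped in both.

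GIS, a zinc-finger transcription factor that promotes trichomes on inflorescence organs, was the only transcriptional regulator among the members with a gene symbol. On the mutant's arrays at 3 h it had 7.66, 7.20 and 7.64 in ozone, against 8.56, 9.20 and 8.59 in clean air. On the wild-type arrays it had 8.42, 7.37 and 8.79 in ozone, against 9.10, 9.01 and 9.05 in clean air. The arrays did not overlap in either genotype, by differences of -1.28 ± 0.528 in the mutant and -0.86 ± 0.528 in wild type, and the wild-type ozone values spread most. At 2 d the mutant had 8.44, 8.45, 7.70 and 8.90 in ozone and 8.93, 6.61 and 7.82 in clean air, and wild type 7.95, 8.80, 7.90 and 7.25 in ozone and 8.95, 8.68, 6.92 and 8.50 in clean air, all overlapping. The trichome marker TRY had group means of 8.20 in ozone and 8.13 in clean air in the mutant at 3 h, and 8.05 in ozone and 8.39 in clean air in wild type, and passed in no ozone contrast.

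Among the members with a gene symbol, those with a role in plastids or organelles were OTP81, SECA2 and NANA. OTP81 is a pentatricopeptide repeat protein of organelle transcript processing. At 3 h it had 6.05, 6.11 and 6.40 in ozone, against 7.21, 7.07 and 6.84 in clean air, in the mutant, with no overlap. Its wild-type arrays had 6.20, 6.29 and 4.88 in ozone and 7.17, 6.16 and 6.70 in clean air, which overlapped. SECA2 is the motor ATPase of the second Sec translocase of plastids. Its wild-type ozone arrays at 3 h read 2.29, 3.60 and 6.01, against 5.58, 4.97 and 5.54 in clean air, and its mutant arrays read 4.36, 5.28 and 2.29 in ozone, against 5.31, 4.61 and 4.41 in clean air. The ozone values of SECA2 spread over several log2 units in both genotypes. NANA, a chloroplast aspartyl protease, had 5.51, 5.32 and 6.03 in ozone and 7.08, 5.53 and 6.79 in clean air in the mutant, and 6.58, 5.82 and 6.34 in ozone and 7.55, 6.98 and 7.34 in clean air in wild type. Only the wild-type arrays of NANA separated, and the overlap in the mutant was with the clean-air array of replicate 2. All 3 were higher in clean air at 2 d than at 3 h, by 1.50 in the mutant and 1.62 in wild type for OTP81, by 2.06 and 1.53 for SECA2 and by 1.33 and 0.83 for NANA.

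**Figure D2:**
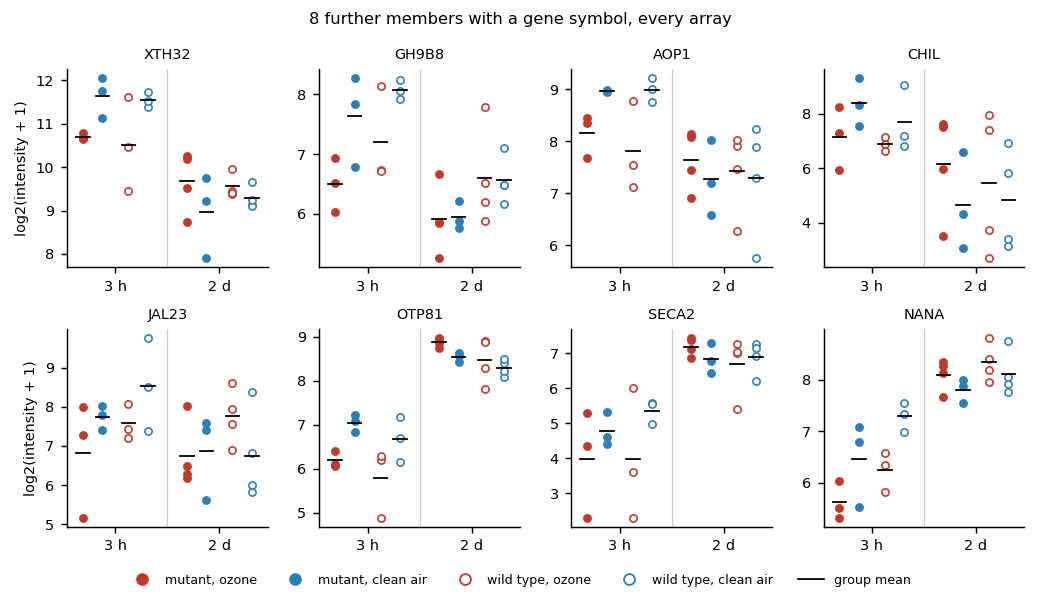
log2(intensity + 1) on every array for 8 members with a gene symbol (filled points mutant, open points wild type, ozone in red left of clean air in blue, bars at the group mean), with 3 h left and 2 d right of the line in each panel. XTH32, GH9B8, AOP1 and CHIL were lower at 2 d than at 3 h in clean air, while OTP81, SECA2 and NANA were higher, and the vertical axes differ between panels.

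The other members with 1 gene are known here by locus tag alone, and the table gives no function for them. Of the 10 members with the lowest mean difference at 3 h and no overlap in either genotype, 8 are of this kind. AT1G20030 had 7.63, 7.75 and 7.83 in ozone, against 10.20, 8.01 and 9.85 in clean air, in the mutant at 3 h. Its wild-type arrays had 7.17, 7.23 and 7.87 in ozone, against 9.69, 8.77 and 9.88 in clean air. The gap between the nearest arrays was small in the mutant and larger in wild type. At 2 d it had 9.56, 8.26, 10.30 and 8.83 in ozone and 5.50, 9.98 and 8.53 in clean air in the mutant, and 8.71, 8.67, 9.92 and 6.59 in ozone and 3.20, 5.45, 10.10 and 7.15 in clean air in wild type. Replicates spread far more at 2 d, and the differences of 1.23 ± 1.14 in the mutant and 2.00 ± 1.06 in wild type did not separate the arrays.

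AT1G65900 had 8.02, 7.43 and 7.63 in ozone, against 9.35, 8.33 and 9.23 in clean air, in the mutant at 3 h. Its wild-type arrays read 7.42, 6.48 and 7.51 in ozone, against 8.64, 8.72 and 8.75 in clean air. The clean-air values of wild type lay close together, and the differences were -1.28 ± 0.456 in the mutant and -1.57 ± 0.456 in wild type. On the later arrays the mutant had 8.04, 7.44, 8.34 and 6.89 in ozone and 7.47, 8.25 and 6.92 in clean air, and wild type 8.20, 7.66, 8.18 and 6.40 in ozone and 7.57, 7.38, 8.23 and 7.17 in clean air. The differences at 2 d were 0.13 in the mutant and 0.02 in wild type, and the 4 group means lay between 7.55 and 7.68.

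AT3G57160 had 5.87, 4.66 and 4.82 in ozone and 6.14, 5.91 and 6.12 in clean air in the mutant at 3 h, and 4.27, 4.44 and 4.11 in ozone and 6.74, 4.76 and 6.64 in clean air in wild type. One clean-air array of wild type, replicate 2, lay far below the other two and just above the ozone arrays. At 2 d it had 3.75, 4.88, 4.49 and 3.91 in ozone and 3.20, 5.33 and 5.26 in clean air in the mutant, and 4.45, 4.26, 6.24 and 4.15 in ozone and 3.94, 4.87, 6.35 and 4.69 in clean air in wild type. Replicate 3 in ozone stood apart from the other wild-type ozone arrays there. Replicate 3 was also the highest of the wild-type clean-air arrays at 2 d, at 6.35.

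AT1G31710 had 5.56, 4.22 and 5.58 in ozone, against 6.30, 6.26 and 7.32 in clean air, in the mutant at 3 h. The wild-type arrays read 5.68, 5.55 and 5.56 in ozone, against 6.15, 6.84 and 7.24 in clean air. The ozone arrays of wild type lay close together and the clean-air arrays spread above them. After 2 d the mutant arrays read 5.52, 6.32, 5.77 and 6.13 in ozone and 6.34, 6.54 and 5.90 in clean air, and the wild-type arrays 7.63, 6.84, 6.14 and 5.90 in ozone and 5.73, 6.90, 5.95 and 7.43 in clean air. They overlapped in both genotypes.

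AT5G39350 was lower in ozone at 3 h, with 6.54, 4.83 and 6.50 against 6.77, 6.74 and 7.15 in clean air in the mutant. Wild type had 5.16, 6.09 and 6.19 in ozone, against 7.09, 7.26 and 7.10 in clean air (limma adjusted p = 0.051, which misses the threshold). At 2 d the order was turned round, with 8.20, 8.15, 7.99 and 8.18 in ozone and 7.57, 7.33 and 7.89 in clean air in the mutant and no overlap. In wild type at 2 d it had 8.14, 8.14, 7.63 and 7.90 in ozone and 7.52, 7.40, 7.18 and 8.02 in clean air, which overlapped. AT5G14550 had 5.94, 5.84 and 6.44 in ozone, against 7.60, 7.16 and 6.97 in clean air, in the mutant at 3 h, and 6.66, 6.57 and 5.17 in ozone, against 6.85, 7.53 and 6.86 in clean air, in wild type. At 2 d all its arrays were higher than at 3 h, with 8.24, 8.66, 8.68 and 8.85 in ozone and 8.69, 8.60 and 7.78 in clean air in the mutant. Its wild-type arrays at 2 d had 8.02, 8.53, 8.24 and 8.57 in ozone and 8.19, 8.27, 8.20 and 8.25 in clean air, so the air groups overlapped.

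AT3G17120 had 8.09, 7.43 and 7.98 in ozone, against 8.55, 8.12 and 9.72 in clean air, in the mutant at 3 h. Wild type had 7.78, 7.45 and 8.37 in ozone, against 8.84, 9.25 and 8.83 in clean air, and the gap between the nearest arrays was small in the mutant. At 2 d it had 7.80, 6.46, 7.49 and 6.88 in ozone and 6.49, 6.61 and 7.64 in clean air in the mutant, and 7.67, 6.57, 6.70 and 7.56 in ozone and 7.04, 7.48, 7.15 and 8.19 in clean air in wild type. AT3G56370 had 7.85, 6.96 and 8.07 in ozone, against 8.60, 8.28 and 8.73 in clean air, in the mutant at 3 h, and 7.21, 7.40 and 8.32 in ozone, against 8.84, 9.06 and 8.50 in clean air, in wild type. At 2 d it had 7.43, 7.28, 7.00 and 7.47 in ozone and 8.19, 7.38 and 6.99 in clean air in the mutant. The wild-type arrays of AT3G56370 read 8.11, 7.98, 6.79 and 6.77 in ozone and 8.56, 7.73, 6.99 and 7.11 in clean air at that time. Both genes were lower in clean air at 2 d than at 3 h and showed no separation by ozone at 2 d.

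**Figure D3:**
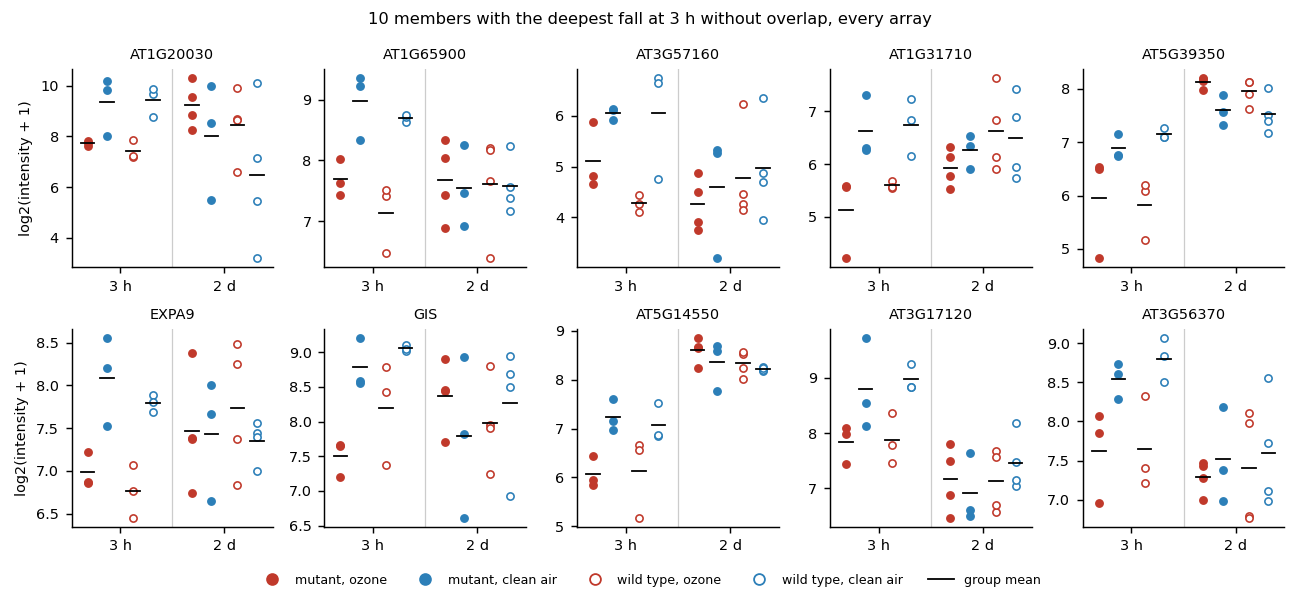
log2(intensity + 1) on every array for the 10 members with the lowest mean difference at 3 h among those with 1 gene and no overlap in either genotype (filled points mutant, open points wild type, ozone in red left of clean air in blue, bars at the group mean). At 3 h each ozone group lies below its clean-air group in every panel, which the choice fixes, and at 2 d the groups overlap in most; the vertical axes differ between panels.

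A further rule took 8 members by their mean signal over the clean-air groups. AT4G16146 had 9.55, 10.10 and 9.27 in ozone and 11.37, 10.08 and 10.92 in clean air in the mutant at 3 h, where replicate 2 in clean air lay at the level of the ozone arrays. In wild type it had 9.41, 9.59 and 9.65 in ozone, against 10.85, 10.60 and 10.22 in clean air, with no overlap. At 2 d its group means were 11.44 in ozone and 11.33 in clean air in the mutant, and 11.46 in ozone and 10.97 in clean air in wild type. XTH32 is described above. Of the other 6, AT1G51610, AT2G39920 and AT1G12120 separated at 3 h in both genotypes and AT3G26960 in wild type, while AT4G26370 and AT5G02710 overlapped in both. AT1G12120 had differences of -0.81 ± 0.218 in the mutant and -0.82 ± 0.218 in wild type, with limma adjusted p = 0.0919 and 0.0624. AT3G26960 had -1.14 ± 0.502 in the mutant and -1.75 ± 0.502 in wild type, and differed between the airs by 0.11 in the mutant and -0.12 in wild type at 2 d. AT2G39920 had 0.85 ± 0.278 at 2 d in the mutant, where its ozone arrays lay above the clean-air arrays, and 0.17 ± 0.257 in wild type.

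By their difference at 2 d the members divided into 3 kinds. For 49 of the 111 the difference lay within 0.4 of 0 in both genotypes. In 14 the ozone mean was at least 0.8 above clean air in both genotypes, and 48 lay between or differed by genotype. The 14 became 20 without replicate 4 of the wild-type ozone arrays, which stood apart. As higher at 2 d, 0 members passed in the mutant in the limma fit (0.154% of all probe sets passed; 15 members had an unadjusted p under 0.05 in either direction) and 4 passed in wild type (1.63%). Ozone lay above clean air without overlap at 2 d for 17 members in the mutant (6.26% of all probe sets) and 4 in wild type (5.34%). The rule set a floor on these differences, so they too are a description. Some members also met the limit on signal only through their ozone groups at 2 d.

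The 4 members that passed at 2 d in wild type were AT2G44240 and probe sets 247946_at, 261086_at and 264729_at, named after their values were seen. AT2G44240 had 10.07, 9.95, 5.30 and 6.04 in ozone at 2 d, against 2.46, 2.83 and 2.35 in clean air, in the mutant. On the wild-type arrays it had 10.45, 11.92, 7.91 and 7.38 in ozone, against 3.87, 2.77, 4.23 and 4.99 in clean air. Both genotypes separated, by 5.29 ± 1.35 in the mutant (limma adjusted p = 0.105) and 5.45 ± 1.25 in wild type (adjusted p = 0.0241). Its lower mean at 3 h rested on few arrays: the mutant had 2.93, 3.69 and 2.41 in ozone and 3.66, 7.88 and 2.68 in clean air, and wild type had 4.74, 8.08 and 5.67 in ozone and 9.62, 5.36 and 6.90 in clean air. Without the mutant's clean-air replicate 2, at 7.88, the mutant's clean-air arrays lay within the range of its ozone arrays. Probe set 264729_at had 1.93 ± 0.696 in the mutant and 3.22 ± 0.644 in wild type at 2 d, 247946_at had 1.94 ± 0.452 and 1.78 ± 0.419, and 261086_at had 1.13 ± 0.296 and 1.11 ± 0.274 in the same order. Of these, 264729_at met the limit on signal only through its ozone groups at 2 d, with means of 6.51 in the mutant and 6.67 in wild type.

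The other 4 members of 1 gene that were at least 0.8 higher in ozone at 2 d in both genotypes were AT1G20030, AT3G02480, AT1G74010 and AT1G09190. AT1G09190 had a low signal at 3 h, with 1.26, 1.49 and 1.81 in ozone and 3.34, 1.72 and 5.49 in clean air in the mutant and 1.72, 2.29 and 2.14 in ozone and 3.00, 3.00 and 5.30 in clean air in wild type. At 2 d it had 7.03, 6.84, 6.56 and 6.94 in ozone and 5.75, 5.36 and 6.29 in clean air in the mutant, and 6.56, 6.89, 5.87 and 6.55 in ozone and 4.63, 5.29, 5.18 and 6.35 in clean air in wild type. It met the limit on signal only through its ozone groups at 2 d, with means of 6.84 in the mutant and 6.46 in wild type. Its clean-air means at 2 d were 5.80 in the mutant and 5.36 in wild type. AT3G02480 also met the limit only through its ozone groups at 2 d, with 6.82 in the mutant and 6.47 in wild type. AT3G02480 and AT1G74010 scattered widely, and their 3 h differences of -1.64 ± 1.48 and -1.15 ± 1.23 in the mutant and -1.74 ± 1.48 and -0.88 ± 1.23 in wild type had SEs of similar size. In all, 15 members had group means below 5 in ozone at 3 h in both genotypes.

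The level in clean air differed with time for many members. Clean air at 2 d was at least 0.8 below clean air at 3 h in both genotypes for 43 members, or 38.7%, against 6.07% of the 16991 probe sets with a group mean of 6 or more. It was at least 0.8 above in both genotypes for 15 members, or 13.5%, against 5.84%. The clean-air arrays at 3 h and 2 d entered the rule, so these shares are a description. Among the 43 were 23 of 1 gene, with CHIL, AOP1, XTH32, JAL23 and GH9B8, and among the 15 were 9 of 1 gene, with NANA, SECA2 and OTP81. The ends of the range were AT1G13650, at -5.90 in the mutant and -4.91 in wild type, and AT1G07050, at 3.86 in the mutant and 3.41 in wild type.

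AT1G07050 had 4.98, 6.06 and 5.39 in ozone and 7.75, 5.35 and 7.39 in clean air in the mutant at 3 h, and 6.34, 5.29 and 6.50 in ozone and 8.34, 6.38 and 7.40 in clean air in wild type. At 2 d every one of its arrays lay between 10.41 and 11.26. AT1G13650 ran the other way, with group means at 3 h of 9.73 in ozone and 10.54 in clean air in the mutant, and of 9.37 in ozone and 10.50 in clean air in wild type. Its means at 2 d were 5.85 in ozone and 4.64 in clean air in the mutant and 5.48 in ozone and 5.59 in clean air in wild type. For both genes the change with time was larger than the difference between the airs at 3 h. Of the 111 members, the highest of the 8 group means was a clean-air group at 3 h in 60 (24 in the mutant and 36 in wild type), an ozone group at 2 d in 40 (28 in the mutant and 12 in wild type), and a clean-air group at 2 d in 11 (1 in the mutant and 10 in wild type).

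**Figure D4:**
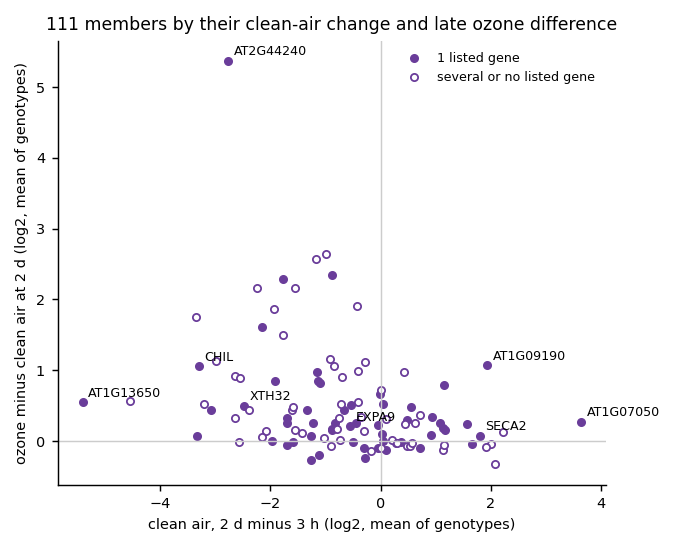
For each of the 111 members, the difference in clean air between 2 d and 3 h (horizontal, log2, 2 d minus 3 h, mean of the genotypes) and the difference of ozone minus clean air at 2 d (vertical, log2, mean of the genotypes). Most members lie left of 0, AT2G44240 has the largest late difference, and AT1G13650 and AT1G07050 lie at the ends of the horizontal axis; clean air at 2 d enters both axes with opposite sign, so the axes are not independent.

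The rule treated the genotypes alike, so the difference between them, averaged over ozone and clean air, could be tested. No member passed as differing between the mutant and wild type at 3 h in the limma fit (0.00879% of all probe sets passed), and 7 members, or 6.31%, had an unadjusted p under 0.05, against 6.79% of all probe sets. At 2 d none passed (0.022% of all passed), and 1 member, GH9B8, had an unadjusted p under 0.05, which is 0.901% of members against 3.09% of all. Between the times, none passed in the genotype by time test (0% of all passed), and 2 members, AT5G05550 and 246518_at, had an unadjusted p under 0.05 (1.8% against 4.16%). The smallest adjusted p at 3 h was that of NANA, whose mean was lower in the mutant by a difference of -0.72 ± 0.242 (SE, limma adjusted p = 0.516). AT2G44240 had the most negative difference, -2.86 ± 1.02, and 247718_at the most positive, 2.60 ± 1.21, neither of which passed. The median over members at 3 h was 0.06, with 62 higher and 49 lower in the mutant, and the median SE was 0.355. Differences well above their SE also did not pass, as for NANA and AT2G44240. The test therefore leaves moderate differences between the genotypes unresolved for a typical member.

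Whether the early difference recurs in plants that had no part in the choice was read by applying the rule to 1 genotype and reading the other. The rule on wild-type arrays alone took 591 probe sets, 109 of them members. On the mutant's arrays their median difference at 3 h was -0.45, against -0.04 over all probe sets, and 526 of the 591 (89%) were below 0, against 53.7% of all. A difference of -0.8 or less was met by 123 (20.8%), against 4.89% of all probe sets. In the limma fit 2 passed as lower (0.0352% of all), both members, and 96 (16.2%) had an unadjusted p under 0.05 as lower, against 3.79% of all. The 591 were held fixed as arrays were left out, so these ranges do not show how far the choice itself moves. The median was -0.62 without the mutant's clean-air replicate 2 and -0.34 without replicate 1, the ends of its range. The count at -0.8 or less became 195 without replicate 2 in clean air. The count of 2 became 1 without mutant ozone replicate 1 or 2 at 3 h, 0 without mutant clean-air replicate 1 or 3, 14 without mutant clean-air replicate 2, and 4 without wild-type ozone replicate 3 or clean-air replicate 1 or 3 at 3 h. Probe sets on shared arrays are not independent, so the shares have no p of their own.

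The rule on the mutant's arrays alone took 291 probe sets, 106 of them members. On the wild-type arrays their median at 3 h was -0.77, against -0.01 over all, and 256 (88%) were below 0, against 51% of all. The limit of -0.8 was met by 145 (49.8%), against 6.91% of all probe sets. In the limma fit 7 passed as lower (0.299% of all), and 106 (36.4%) had an unadjusted p under 0.05 as lower, against 7.43%. Those 7 were the members AT4G29610, 254563_at and 263548_at and, outside the members, AT4G30020, AT3G52170, 259784_at and 263034_at. The 291 were likewise held fixed as arrays were left out. The median lay between -0.96 without wild-type ozone replicate 3 and -0.61 without wild-type ozone replicate 2. The count of 7 became 48 without wild-type ozone replicate 3 at 3 h, 0 without ozone replicate 1 or clean-air replicate 1 or 3, 1 without ozone replicate 2 and 2 without clean-air replicate 2. It became 4 without mutant ozone replicate 1 or 2, wild-type ozone replicate 3 or wild-type clean-air replicate 2 or 4 at 2 d.

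**Figure D5:**
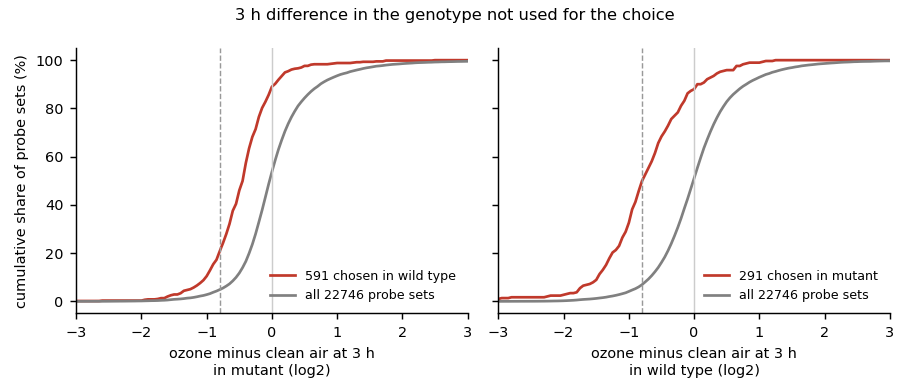
Cumulative share of probe sets (vertical, percent) by the difference of ozone minus clean air at 3 h (horizontal, log2) in the genotype that took no part in the choice, for the chosen probe sets (red) and all 22746 (grey), with the limit of -0.8 dashed. The red curves lie left of the grey ones: 89% of the 591 chosen in wild type were below 0 in the mutant and 88% of the 291 chosen in the mutant were below 0 in wild type.

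The same reading was made of the time course, as the difference at 2 d minus the difference at 3 h. For the 591 probe sets chosen in wild type its median in the mutant was 0.80, and 525 (88.8%) were above 0, against 49.6% of all probe sets. None passed (0.00879% of all passed as higher), and 169 (28.6%) had an unadjusted p under 0.05 as higher, against 6.48%. The 0 became 3 without mutant clean-air replicate 2 at 3 h, 1 without wild-type ozone replicate 1 at 3 h, 2 without mutant ozone replicate 3 at 2 d and 5 without wild-type ozone replicate 4 at 2 d. For the 291 chosen in the mutant the median in wild type was 0.63, with 224 (77%) above 0, against 42.7% of all. The 4 that passed as higher (0.673% of all) were 247946_at, 261086_at, 264729_at and 265342_at, all members without a listed gene. The 4 became 17 without wild-type ozone replicate 4 at 2 d, 0 without ozone replicate 1 or clean-air replicate 1 or 3 of wild type at 3 h or ozone replicate 2 at 2 d, 1 without ozone replicate 1 at 2 d, and 2 without ozone replicate 3 or any 1 of the clean-air arrays of wild type at 2 d. On both sides the unused genotype was thus read at 2 d as well: its median difference then was 0.29 in the mutant, against -0.01 over all probe sets, and -0.09 in wild type, the same as over all.

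The clean-air difference between 2 d and 3 h was also read in the unused genotype. Of the 591 chosen in wild type, 24.2% were at -0.8 or less in the mutant, against 11.1% of all probe sets, and 13.4% at 0.8 or more, against 8.48%. Of the 291 chosen in the mutant, 26.1% were at -0.8 or less in wild type, against 13.3% of all, and 20.6% at 0.8 or more, against 9%.

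Near the limit the values run on smoothly. Just inside it, by the smaller of the 2 genotypes' differences at 3 h, were AT4G02750 at -0.801, AT4G33700 at -0.801 and AT1G80170 at -0.803. Just outside were POLH at -0.795, AT5G27820 at -0.792 and AT1G54050 at -0.788. AT1G54050 had a difference of -1.654 in wild type at 3 h, and it was the mutant that kept it out. Membership therefore moves with single arrays: the rule took 77 to 181 probe sets as each array was left out in turn, and 181 was without the mutant's clean-air replicate 2. In all 27 such choices 13 members stayed, among them AT4G16146, EXPA9, AT1G07050, AT1G20030, AT1G65900 and AT1G09190. With the other pseudocount, centring and quantile normalization added, 12 stayed, and AT1G09190, with its low signal at 3 h, did not.

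Beside the cell wall and glucosinolate lists, 11 lists with matched genes held no member. None of their genes passed at 3 h in either genotype. These lists covered auxin, cytokinin, gibberellin and brassinosteroid, light and clock, histones and cell cycle, transport, and MYB and bHLH factors. The rest were homeobox, TCP, GATA and zinc finger factors, cuticle and lipid, starch and sugar, and receptor-like kinases. The symbol patterns did not match the member GIS, a zinc-finger factor. The lists were matched by symbol, so members known by locus tag alone or with no listed gene could hardly enter them. The lack of members in these lists therefore says little about what the members do. The 14th list, cytosolic ribosomal proteins, had 0 genes matched by symbol in the annotation used here. At 2 d in wild type 3 of the 70 probe sets of these 11 lists passed as lower and 1 as higher, against 1.82% and 1.63% of all probe sets. RR16, a type-A response regulator of cytokinin signalling, was at -1.84 ± 0.396, SWEET6, a sugar transporter, at -0.99 ± 0.267, FATB, a thioesterase of fatty acid synthesis, at -0.71 ± 0.197 and HYH, a light-signalling bZIP factor, at 1.81 ± 0.416 (SE, limma adjusted p between 0.019 and 0.0488).

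Of 35 markers of leaf and other cell types, 6 were measured by name, and none of them is a member. The mesophyll markers PSAN and LHCB4.1 had group means between 12.59 and 14.57, and the root marker PYK10 lay between 4.88 and 6.61. PYK10 differed at 3 h by -0.01 in the mutant and by -1.06 in wild type (limma adjusted p = 0.459), a low signal whose part in the members' differences was not tested. The guard cell markers FAMA and GC1 differed at 3 h by -0.18 and -0.16 in the mutant and 0.04 and -0.11 in wild type, and no marker passed in any ozone contrast. TRY was lower at 2 d than at 3 h in clean air, with 3.25 at 2 d and 8.13 at 3 h in the mutant and 5.04 at 2 d and 8.39 at 3 h in wild type; its part in the clean-air differences of the members was not tested.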

How the data were processed

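RNA was amplified and biotin-labelled before hybridisation to 27 arrays, per the labels' protocols. The deposited values are linear intensities, 1 for each probe set on each array. The submitters' processing notes name Affymetrix Expression Console with RMA, but RMA gives log2 values and the trimmed means of the deposited intensities (495.9 to 496.8) are nearly equal, and their scaling was not stated. A log2(intensity + 1) scale was used with no filter or further normalization. Values of dim probe sets scatter widely on this scale, and with a pseudocount of 16 the rule took 75 probe sets in place of 111. One model with 8 group means was fitted in limma 3.58.1 (R 4.3.3; 19 residual and 2.53 prior degrees of freedom), two-sided, with Benjamini-Hochberg adjustment over all 22746 probe sets and a threshold of 0.05, and checked on simulated data. The number of arrays limits the precision: 3 or 4 a group, with a median SE of a 3 h difference of 0.338 over all probe sets and 0.502 over the members. Replicates are called biological in the labels, which do not say how many plants made 1 array. Genes were named by the platform annotation, with symbols updated from the TAIR10.1 gene table. The rule for named genes took, among members of 1 gene, the 10 with the lowest mean difference at 3 h without overlap, the 8 with the highest clean-air mean, the list members, any that passed a genotype test (0 did) and the 3 nearest either side of the limit. The members and lists were chosen with earlier results of these data known. Deviations of same-numbered samples from their group means correlated at -0.087 to 0.276 over 26 pairs. All pairs exceeded 0.1, the limit for treating numbers as pairs, for mutant against wild type in ozone at 2 d (0.102 to 0.17) and not between other groups, and no label ties a number to a shared batch. The replicate number was fitted as an alternative. Alternatives were another pseudocount (16), centring, quantile normalization, a filter on level, array weights, trend and robust moderation, a replicate block, separate fits and each array left out. Promoter sequences were not analysed here.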

Additional observations from a re-analysis of the deposited data

Results flagged for a closer look

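In groups of 4 arrays, the highest or lowest array was compared with its neighbours by Dixon's criterion at 95% for the median of the members and for the 10 members shown array by array. Of 33 such groups 2 had an array standing apart, and chance gives about 1 in 20. The median of the 111 members on the wild-type ozone array of replicate 4 at 2 d was 7.25, and the other 3 arrays of that group lay between 8.14 and 8.25. For AT3G57160, replicate 3 of the same group had 6.24, above 4.15 to 4.45 on the other arrays. Replicate 3 of the wild-type clean-air group at 2 d was also the highest of its group for this gene, at 6.35.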

How the results depend on the processing

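The 3 h differences of 22 members named by the rule were re-computed under the other pseudocount, centring and quantile normalization and without each array at 3 h, and the 396 values moved by less than the spread between arrays; their direction was fixed by the choice of members. Over all 111 members, 109 to 111 stayed below 0 at 3 h as each array of that contrast was left out, with 109 without wild-type clean-air replicate 1. Under a pseudocount of 16 the rule took 75 probe sets (69 of them shared with the 111), with centred arrays 129 (109 shared) and after quantile normalization 141 (109 shared). With each array left out in turn it took 77 to 181. The count of members past the genotype test at 3 h was 0 to 0 with arrays left out and 2 with array weights (AT5G05550 at 1.39 ± 0.328 and 265342_at at 0.84 ± 0.206, both higher in the mutant), and those at 2 d and between times were 0 to 0. For probe sets chosen in wild type and read in the mutant at 3 h, the count that passed was 2; it was 4 with the filter on level, 42 with array weights, 4 with trend and robust moderation, 0 in separate fits and 0 to 14 with arrays left out. For those chosen in the mutant and read in wild type it was 7; it was 14 after quantile normalization, 11 with the filter on level, 88 with array weights, 11 with trend and robust moderation, 0 in separate fits and 0 to 48 with arrays left out. The time-course count in the mutant was 0, and became 1 with a pseudocount of 16, 4 with the filter on level, 31 with array weights and 0 to 5 with arrays left out. In wild type it was 4, and became 49 with array weights and 0 to 17 with arrays left out. As arrays were left out, the probe sets chosen in 1 genotype were held fixed, so these ranges leave out changes in the choice. The filter tests fewer probe sets, and the separate fits use fewer arrays and the spread of a single time. The cause of the other changes was not tested. With the replicate number as a block, the counts were 13 for the mutant-chosen set at 3 h and 9 for the time course in the mutant, and the block changed no genotype count. Of 26 same-number correlations 12 exceeded 0.1, among them all 4 between mutant and wild type in ozone at 2 d. The counts over members were re-computed by a choice made after seeing the data, and were 10 to 20 (higher at 2 d in ozone), 35 to 46 (lower at 2 d in clean air) and 11 to 16 (higher at 2 d in clean air) with arrays left out. Signal limits the rest: 15 members had means under 5 in ozone at 3 h in both genotypes, where log2 values scatter widely.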
